A study of Mus musculus with 12 samples.

Results

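Ccr1, Ccr2, Ccr7, Cx3cr1, Cxcr4, Ackr3, Ccrl2 and S1pr1 encode cell-surface receptors that bind chemokines, or related guidance signals, and steer leukocytes. Their expression was compared in mouse macrophages recovered from inside tumour cell spheres and in macrophages that stayed outside the spheres of the same cultures. A gene was represented by a probe set that the array's annotation pairs with that symbol and no other; where several existed, the one with the highest mean over the 12 arrays was kept. By this rule 6 of the 8 genes had a probe set, out of 17097 genes in all, and Ccr7 and Cxcr4 were not analysed here.

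RNA was hybridised to Affymetrix 3' expression arrays, which report a log2 signal for each probe set. The groups were in-sphere macrophages at 48 h, outside macrophages at 48 h, in-sphere macrophages at 24 h and outside macrophages at 24 h, each with 3 arrays. Each replicate was an independent experiment in which wells were pooled, so the p-values measure the spread between such experiments. The tumour cells were of a single mouse neuroblastoma line, TT9423, which formed spheres on agar. Bone marrow-derived macrophages of C57BL/6 mice were added in equal number, so every group had been in co-culture with the tumour cells and none was grown without them. In-sphere macrophages were released by enzymatic digestion and taken on magnetic columns by CD11b, an integrin of myeloid cells. The labels do not state how the outside cells were collected, and location and preparation cannot be told apart. The 24 h and 48 h times are those of the sample titles; the protocol text, which is the same on all samples, describes 24 h of co-culture.

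Chemokine receptors are seven-helix membrane proteins that couple mainly to inhibitory G proteins, and movement up a gradient of the ligand follows their activation. Ccr2 draws inflammatory monocytes out of the bone marrow and into tissue, and Cx3cr1 is the fractalkine receptor of patrolling monocytes and many tissue macrophages. The atypical receptors Ackr3 and Ccrl2 bind chemoattractants without the usual G protein signalling: Ackr3 takes up and removes Cxcl12, and Ccrl2 holds chemerin at the cell surface. S1pr1 is a receptor for the lipid sphingosine 1-phosphate and guides lymphocytes out of lymphoid organs.

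All 10 macrophage markers with a tested probe set lay above the filter level for dim genes (2.77 on the log2 scale) on every array; at 48 h 2 were higher and 3 lower in in-sphere cells, and at 24 h 1 was higher and 2 lower. The log2 of their summed level spanned 14.23 to 14.34 in in-sphere cells and 14.20 to 14.34 in outside cells at 48 h, against 14.14 to 14.41 in in-sphere cells and 14.11 to 14.35 in outside cells at 24 h. The array medians ran from 3.03 to 3.17, and the third in-sphere 48 h array stood apart, its log2 values averaging 4.06, where the other 11 arrays averaged 4.20 to 4.22. Every receptor call at 48 h was also made without that array. Its removal moved the in-sphere minus outside difference at 48 h to 4.07 for Ccr2, 3.49 for Cx3cr1 and 3.17 for Ackr3.

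The promoters of the genes with the largest differences, and of Ccrl2, whose difference was the smallest at 24 h, are shown because the results turn on these genes. They come from RefSeq, build GRCm38.p6, and run from 250 bases before to 50 bases after the annotated start, 5' to 3' on the gene's strand. Of the 6 genes, 5 had an entry. Capitals mark matches on either strand to the hypoxia response core, ACGTG or GCGTG, and to the NF-kB consensus, by which factors of low oxygen and of inflammation are known to bind DNA.
Ccr2, chr9:124101933-124102232, plus strand: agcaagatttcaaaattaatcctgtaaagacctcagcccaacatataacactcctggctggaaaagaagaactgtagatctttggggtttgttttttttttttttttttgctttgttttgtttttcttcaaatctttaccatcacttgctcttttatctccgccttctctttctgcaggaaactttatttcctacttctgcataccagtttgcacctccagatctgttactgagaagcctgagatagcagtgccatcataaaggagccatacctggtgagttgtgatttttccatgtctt
Cx3cr1, chr9:120068247-120068546, minus strand: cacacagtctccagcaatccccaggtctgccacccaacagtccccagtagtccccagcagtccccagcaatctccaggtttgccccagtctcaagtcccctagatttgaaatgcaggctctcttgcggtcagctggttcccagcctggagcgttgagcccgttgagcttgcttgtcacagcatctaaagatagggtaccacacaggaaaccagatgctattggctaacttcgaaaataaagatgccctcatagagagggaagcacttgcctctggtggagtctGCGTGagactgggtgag
Ackr3, chr1:90203730-90204029, plus strand: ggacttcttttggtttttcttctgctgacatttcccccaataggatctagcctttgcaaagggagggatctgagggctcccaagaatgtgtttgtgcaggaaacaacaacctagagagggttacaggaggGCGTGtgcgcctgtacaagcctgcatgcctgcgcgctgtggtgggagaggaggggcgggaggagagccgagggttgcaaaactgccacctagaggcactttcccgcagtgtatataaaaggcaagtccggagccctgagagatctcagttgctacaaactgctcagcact
Ccrl2, chr9:111057469-111057768, minus strand: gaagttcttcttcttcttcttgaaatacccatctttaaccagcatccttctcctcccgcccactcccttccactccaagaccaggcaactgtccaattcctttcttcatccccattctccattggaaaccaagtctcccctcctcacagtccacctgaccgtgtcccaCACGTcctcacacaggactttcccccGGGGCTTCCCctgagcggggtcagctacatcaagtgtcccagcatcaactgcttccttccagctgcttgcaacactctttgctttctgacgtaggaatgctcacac
The Ccr2 window held no match to either motif and had 38% G and C. The Cx3cr1 and Ackr3 windows each held 1 hypoxia core, the first beginning 34 bases after the start and the second 120 bases before it, and had 54.3% and 54% G and C. The Ccrl2 window held 1 hypoxia core 82 bases before the start and 1 NF-kB match, read on both strands, 56 bases before it; it is the first of 3 RefSeq windows of that gene, and the other two held hypoxia cores but no NF-kB match. Ccr1, whose window is not printed, held 1 match to each motif. Among all 32851 promoters of the table, 43.8% held the hypoxia core and 8.46% the NF-kB consensus, so a hypoxia core was common in windows of this length. A match here is a string of letters and not a shown binding site.

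Of the 6 receptors, 6 were higher in in-sphere than in outside macrophages at 48 h and none was lower; 15.2% of the 12488 genes tested were called higher and 22.3% lower in this comparison (limma, Benjamini-Hochberg adjusted p under 0.05 over all of them). At 24 h, 5 were higher and none was lower, against 15.8% of all genes called higher and 13.6% lower. The receptors were chosen with earlier results of these data known, so these counts are not an independent test of the family. The median in-sphere minus outside difference of the 6 was 2.44 at 48 h and 1.33 at 24 h on the log2 scale, beside medians over all tested genes of -0.10 and -0.0068. For 5 of the 6, every in-sphere array was above every outside array at 48 h, and the same count was 5 at 24 h; among all tested genes 20.7% were separated upward at 48 h and 22.0% at 24 h. Ordered by the size of the 48 h difference among all 12488 genes, Ccr2 was 18th, Cx3cr1 40th and Ackr3 47th, while Ccr1 was 714th, S1pr1 4066th and Ccrl2 4222nd. At 24 h Ackr3 was 17th, Cx3cr1 127th and Ccr2 525th. Fewer cells of a type and less RNA per cell cannot be told apart in such bulk RNA.

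**Figure D1:**
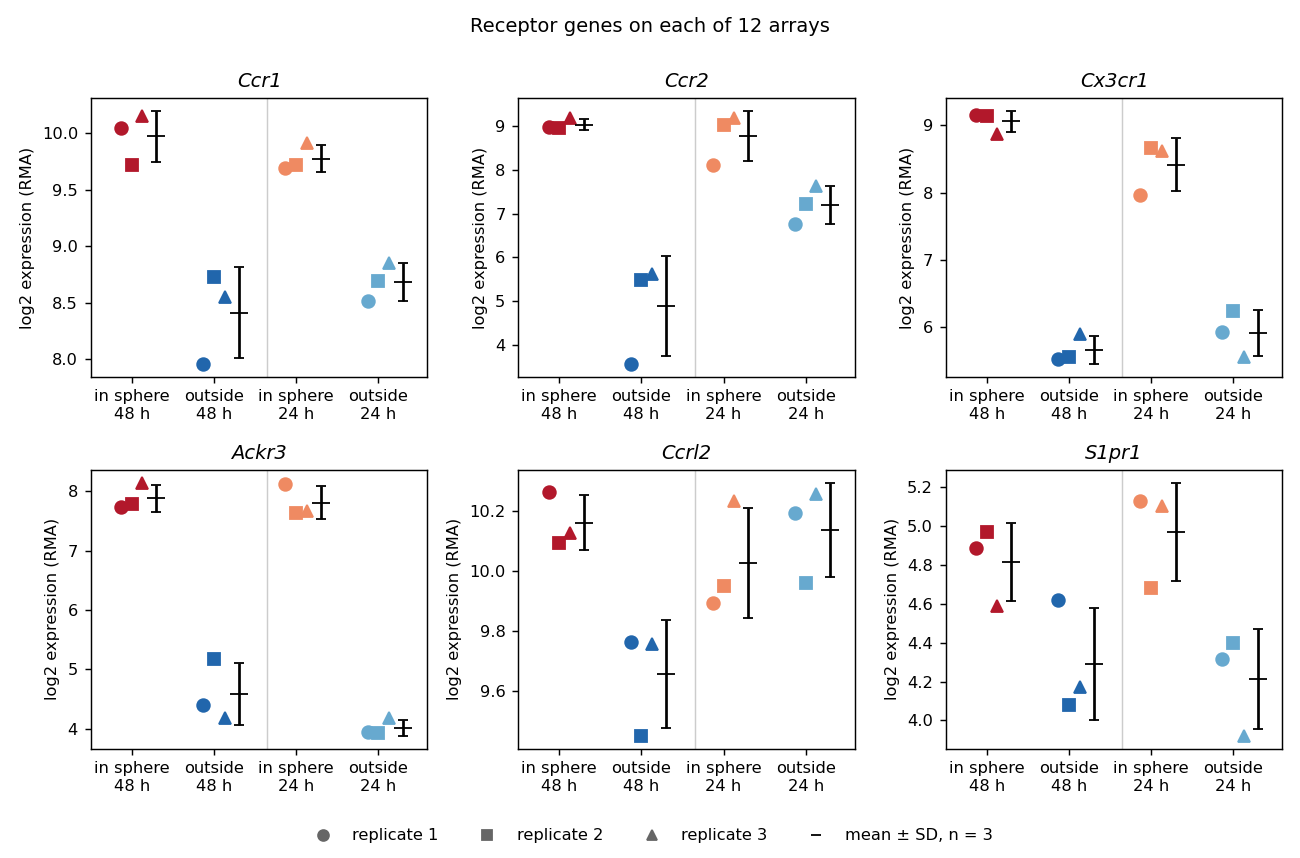
Log2 signal of each receptor on each of the 12 arrays (points, 1 shape per replicate) with the group mean ± SD (crossed bars, n = 3), in-sphere left of outside at 48 h and then at 24 h. Ccr2, Cx3cr1 and Ackr3 are separated by location at both times, and Ccr2 in outside cells lies at 3.56 to 5.62 at 48 h, against 6.77 to 7.62 at 24 h.

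**Figure D2:**
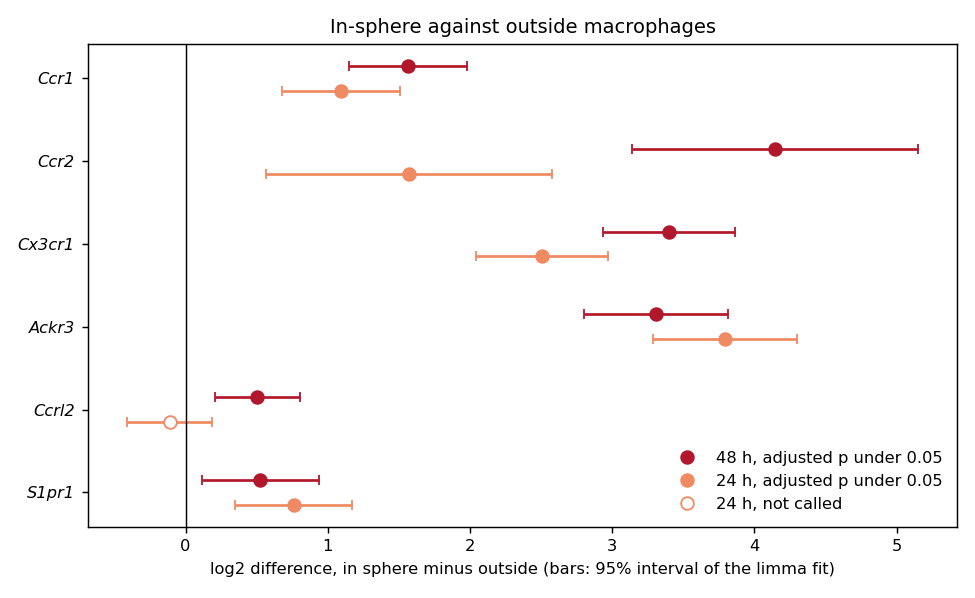
In-sphere minus outside log2 difference of the 6 receptors at 48 h and at 24 h, with 95% confidence intervals (bars) and open points for a difference that did not pass. The in-sphere minus outside interval at 48 h lies above 0 for all 6, and at 24 h the Ccrl2 interval includes 0.

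Ccr2, the receptor for Ccl2 on inflammatory monocytes, was higher in in-sphere macrophages at both times. At 48 h its log2 signal was 8.98, 8.95 and 9.18 in in-sphere cells, against 3.56, 5.49 and 5.62 in outside cells. At 24 h it was 8.12, 9.02 and 9.19 in in-sphere cells, against 6.77, 7.21 and 7.62 in outside cells. All in-sphere arrays exceeded all outside arrays, and the outside 48 h group was the most spread, with its first array lowest. The difference was 4.15 ± 0.46 (SE, n = 3 each) at 48 h, a 17.7-fold difference (limma adjusted p = 3.10e-05). Without the lowest array, outside 48 h replicate 1, it was 3.48, or 11.2-fold. At 24 h it was 1.57 ± 0.46, or 2.98-fold (limma adjusted p = 0.0220). The 24 h call was lost without in-sphere 24 h replicate 2 or 3 (limma adjusted p = 0.0719 and 0.0767) or without outside 24 h replicate 1 or 2 (limma adjusted p = 0.0814 and 0.0536), over a range of 0.00139 to 0.0814 in all alternatives. Between same-numbered arrays, the in-sphere value exceeded the outside value by 5.41, 3.47 and 3.56 at 48 h and by 1.35, 1.81 and 1.56 at 24 h.

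The Ccr2 groups stood in the order in-sphere 48 h (9.04 ± 0.12), in-sphere 24 h (8.77 ± 0.58), outside 24 h (7.20 ± 0.43) and outside 48 h (4.89 ± 1.15; SD, n = 3 each). The first and second of these overlapped; the other neighbours did not. In outside cells the 48 h minus 24 h difference was -2.31 ± 0.46, the fifth largest of all genes in that comparison, or 4.96-fold, with a limma adjusted p of 0.0658 in the fit without replicate numbers. Without outside 48 h replicate 1 it was -1.65, or 3.13-fold (limma adjusted p = 0.0963). With the replicate number as a block the same difference had a limma adjusted p of 0.00799, and the value was lower at 48 h in 3 of 3 same-numbered pairs, with differences between -3.21 and -1.72. In the fit without the block 0.224% of all genes were called lower and 0.112% higher at 48 h in outside cells, and 8.66% were separated downward. In in-sphere cells the same time difference was 0.26 ± 0.46. The location difference was larger at 48 h than at 24 h by 2.57 ± 0.65, with a 95% confidence interval of 1.15 to 3.99 and a limma adjusted p of 0.171, which the block turned to 0.0421. Without outside 48 h replicate 1 this change was 1.91, and with the mean of the gene's probe sets it was 1.53 (limma adjusted p = 0.242 and 0.207). No gene of the 12488 was called for this change in location difference without the block (0.00% of them, limma, smallest adjusted p 0.0657). An unadjusted limma p under 0.05 was found for 3 of the 6 receptors and for 1534 of the 12488 genes.

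Ccr2 had 4 single-gene probe sets, and all gave a higher level in in-sphere cells at both times. In a fit of all 20235 single-gene probe sets above the filter level, the 3 others differed by 4.03 ± 0.35 (1421187_PM_at), 2.18 ± 0.29 (1421188_PM_at) and 1.42 ± 0.33 (1460067_PM_at) at 48 h, and by 1.62, 1.47 and 0.99 at 24 h. The size of the 48 h difference thus depended on the probe set, while the 24 h difference varied less among them. The 48 h minus 24 h difference in outside cells was -1.98 ± 0.35 by the first of these (limma adjusted p = 0.0465), -0.62 by the second and -1.09 by the last. In in-sphere cells the last gave -0.67 ± 0.33 over time where the kept probe set gave 0.26, so the sign differed between probe sets. The change in location difference was 2.41 ± 0.50 by 1421187_PM_at, 0.71 ± 0.41 by 1421188_PM_at and 0.43 ± 0.46 by 1460067_PM_at (limma adjusted p = 0.135, 0.525 and 0.756).

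**Figure D3:**
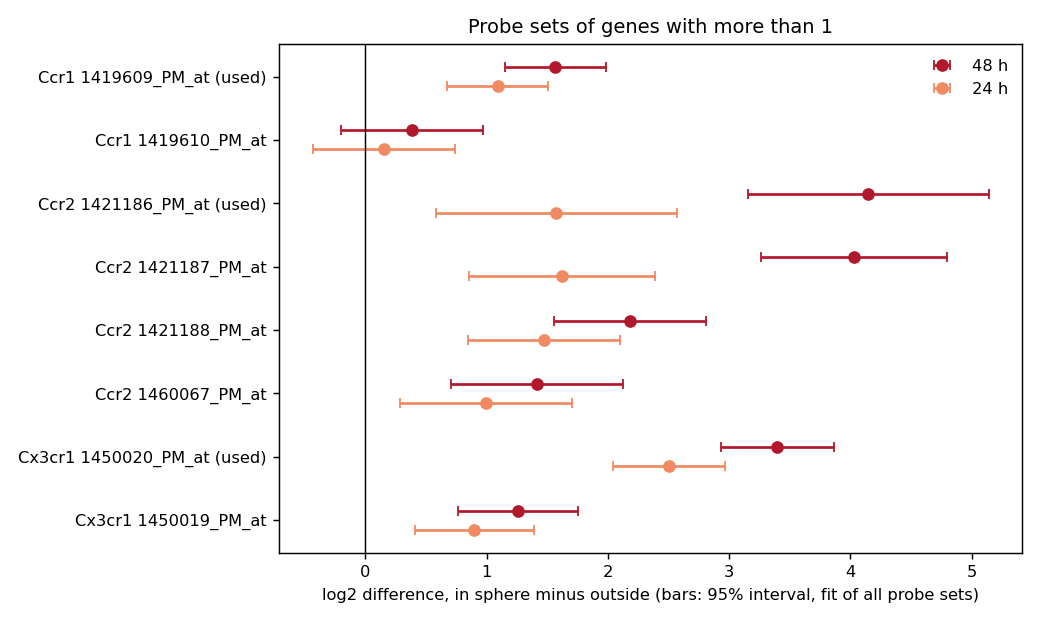
In-sphere minus outside log2 difference for each single-gene probe set of Ccr1, Ccr2 and Cx3cr1, with 95% confidence intervals (bars), at 48 h and 24 h, from the fit of all probe sets. All 4 Ccr2 and both Cx3cr1 probe sets lie above 0, and the second Ccr1 probe set lies at 0.38 and 0.15.

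Cx3cr1, the receptor for fractalkine, was higher in in-sphere macrophages by 3.40 ± 0.21 at 48 h, or 10.5-fold (limma adjusted p = 9.95e-07). At 24 h it was higher by 2.50 ± 0.21, or 5.67-fold (limma adjusted p = 8.49e-06). Its log2 signal at 48 h was 9.15, 9.14 and 8.87 in in-sphere cells, against 5.52, 5.55 and 5.90 in outside cells. The 24 h arrays read 7.96, 8.66 and 8.61 in in-sphere cells, against 5.93, 6.24 and 5.56 in outside cells. The gap between the locations was far wider than the spread within any group. Outside cells overlapped between the times, with a 48 h minus 24 h difference of -0.25. In in-sphere cells all 48 h arrays exceeded all 24 h arrays, as for 4.46% of all genes, by 0.64 ± 0.21 in the mean, which did not pass (limma adjusted p = 0.330, unadjusted p = 0.0105). The widening of the location difference was 0.89 ± 0.30 (limma adjusted p = 0.262). From high to low the groups were in-sphere 48 h, in-sphere 24 h, outside 24 h and outside 48 h, and the last pair did not differ beyond its spread. A dimmer second probe set, 1450019_PM_at, gave 1.26 ± 0.23 at 48 h and 0.90 ± 0.23 at 24 h.

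Ccr1, a receptor for Ccl3, Ccl5 and related inflammatory chemokines, was higher in in-sphere cells by 1.57 ± 0.19 at 48 h, a 2.96-fold difference (limma adjusted p = 6.08e-05). The 24 h difference was 1.09 ± 0.19, or 2.13-fold (limma adjusted p = 0.00112). The signal at 48 h was 10.05, 9.72 and 10.16 in in-sphere cells, against 7.95, 8.73 and 8.55 in outside cells. The 24 h values were 9.69, 9.72 and 9.92 in in-sphere cells, against 8.51, 8.69 and 8.85 in outside cells. The locations were separate at both times, and within a location the times overlapped. The order was in-sphere 48 h, in-sphere 24 h, outside 24 h and outside 48 h, with only the middle pair apart beyond its spread. The probe sets of Ccr1 disagreed: the dimmer one, 1419610_PM_at, differed by 0.38 ± 0.27 at 48 h (limma adjusted p = 0.299) and by 0.15 at 24 h (limma adjusted p = 0.735), and passed at neither time.

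Ackr3, the scavenging receptor for Cxcl12, was higher in in-sphere cells by 3.31 ± 0.23 at 48 h, or 9.89-fold (limma adjusted p = 1.67e-06). At 24 h its difference was the largest of the 6 receptors, 3.79 ± 0.23 or 13.9-fold (limma adjusted p = 1.30e-06). Its signal at 48 h was 7.73, 7.78 and 8.15 in in-sphere cells, against 4.39, 5.17 and 4.18 in outside cells. The 24 h values were 8.13, 7.63 and 7.67 in in-sphere cells, against 3.94, 3.93 and 4.17 in outside cells. In-sphere arrays overlapped between the times, with a difference of 0.077. Outside cells were higher at 48 h than at 24 h on every array, as for 13.4% of all genes, by 0.57 ± 0.23, which did not pass (limma adjusted p = 0.388). The order was thus in-sphere 48 h and in-sphere 24 h, which overlapped, then outside 48 h and outside 24 h. The Ackr3 probe set carries the manufacturer's mark for a sequence that may match several transcripts, and it was the only one of this gene.

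Stromal markers were mixed, with more of them higher than lower in in-sphere cells, where Ackr3 was higher. At 48 h, 6 of the 11 stromal cell markers rose and 3 fell in in-sphere cells, and at 24 h 5 rose and 2 fell. Col3a1, a fibrillar collagen, was higher by 3.28 and 2.64. Col1a2, of the same list, lay near the filter level at 24 h, at 2.89 in in-sphere and 2.43 in outside cells (limma adjusted p = 0.0882). Lum was at or under that level on every in-sphere 48 h array and averaged 3.35 in outside cells (limma adjusted p = 0.237). The stromal list's median difference was 1.21 at 48 h and 0.46 at 24 h. The log2 of their summed level spanned 11.48 to 11.52 in in-sphere and 9.44 to 10.15 in outside cells at 48 h, against 10.99 to 11.97 in in-sphere and 9.49 to 10.00 in outside cells at 24 h. Of 12 tested neuroblastoma and neural markers, 3 were higher at 48 h, where 15.2% of all genes were, and 2 at 24 h, a share of 16.7% that lay near the 15.8% of all genes. The list's medians were -0.026 and -0.025, and its highest difference was that of Gap43, a protein of growing axons, at 4.41 and 3.99. The summed level of all 15 with a probe set spanned 8.08 to 8.40 in in-sphere and 6.91 to 7.06 in outside cells at 48 h. At 24 h it spanned 8.06 to 8.71 in in-sphere and 7.30 to 7.34 in outside cells. Chga, Tubb3 and Gata3 were at or under the filter level on every array. At 48 h 5 of the 15 were at or under it on every in-sphere array, and 5 on every outside array. Background signal of such dim genes enters these sums, and the brightest genes weigh most in them. The mean log2 level of the 15 spanned 3.37 to 3.42 in in-sphere and 2.88 to 2.95 in outside cells at 48 h. At 24 h this mean spanned 3.34 to 3.49 in in-sphere and 3.07 to 3.16 in outside cells. The part of these cells in the Ackr3 difference, or in those of the other receptors, was not tested.

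Ccrl2 had the smallest location difference of the 6 receptors at both times. It was higher in in-sphere cells at 48 h by 0.50 ± 0.14, or 1.42-fold (limma adjusted p = 0.0122), a call that was lost without outside 48 h replicate 2 (limma adjusted p = 0.0595, range over the alternatives 0.00333 to 0.0595). At 24 h the difference was -0.11 ± 0.14, with an interval of -0.41 to 0.19 (limma adjusted p = 0.608). The signal at 48 h was 10.26, 10.09 and 10.12 in in-sphere cells, against 9.76, 9.45 and 9.76 in outside cells. At 24 h it was 9.89, 9.95 and 10.23 in in-sphere cells, against 10.19, 9.96 and 10.26 in outside cells. The outside 48 h group was the low one, and the other groups overlapped. In outside cells the 48 h minus 24 h difference was -0.48 ± 0.14, lower in 3 of 3 same-numbered pairs, which did not pass (limma adjusted p = 0.173). The order was in-sphere 48 h, outside 24 h, in-sphere 24 h and outside 48 h. Its probe set carries the mark for alternative transcripts of a single gene.

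S1pr1 was higher in in-sphere cells by 0.53 ± 0.19 at 48 h, or 1.44-fold (limma adjusted p = 0.0457), and by 0.76 ± 0.19 at 24 h, or 1.69-fold (limma adjusted p = 0.00937). The signal at 48 h was 4.89, 4.97 and 4.59 in in-sphere cells, against 4.62, 4.08 and 4.17 in outside cells. The corresponding 24 h values were 5.13, 4.68 and 5.10 in in-sphere cells, against 4.32, 4.40 and 3.92 in outside cells. The locations overlapped at 48 h and were separate at 24 h. Single arrays decided the 48 h call: it was lost without in-sphere 48 h replicate 1 or 2 (limma adjusted p = 0.106 and 0.130), outside 48 h replicate 2 or 3 (limma adjusted p = 0.158 and 0.134), in-sphere 24 h replicate 3 (limma adjusted p = 0.0529) or outside 24 h replicate 1 (limma adjusted p = 0.0569). It was also lost with no filter on dim genes (limma adjusted p = 0.0549), with only the groups compared in the fit (limma adjusted p = 0.0581) and with a mean-variance trend and robust fit (limma adjusted p = 0.0633). In the fit of all probe sets the 48 h difference just missed the threshold (limma adjusted p = 0.050005). The order was in-sphere 24 h, in-sphere 48 h, outside 48 h and outside 24 h, and the time difference passed in neither location.

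Over time, none of the 6 receptors passed in either location: 0.00% of all genes were called in in-sphere cells (limma, smallest adjusted p 0.0560) and 0.336% in outside cells. At an unadjusted limma p under 0.05 the count was 1 receptor in in-sphere cells, higher at 48 h, and 3 in outside cells, 1 higher and 2 lower. Of all 12488 genes, 1341 in in-sphere cells and 1352 in outside cells were under the same threshold.

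Ccr1, Ccr1l1, Ccr3 and Ccr2 lie next to each other in that order in RefSeq, a cluster on mouse chromosome 9, preceded by Ccr9, Fyco1, Cxcr6 and Xcr1. Within the cluster Ccr1 and Ccr2 were higher in in-sphere cells, while Ccr3, an eosinophil receptor between them, differed by -0.57 ± 0.24 at 48 h (limma adjusted p = 0.0853) and by -0.13 at 24 h. Fyco1, an adaptor of vesicle transport, was lower at 48 h (-0.68 ± 0.19, limma adjusted p = 0.0122). Ccr1l1, Ccr9, Cxcr6 and Xcr1 were under the filter level. The direct neighbours of Ackr3, Iqca and Cops8, passed at neither time, and the gene after Cops8, the collagen gene Col6a3, was higher in in-sphere cells by 1.67 ± 0.27 at 48 h and 1.44 ± 0.27 at 24 h.

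The ligands of the receptors, a list of 17 genes of which 16 were tested, were higher in in-sphere cells for 10 genes at 48 h and 10 at 24 h, and lower for none. Their median difference was 0.79 at 48 h and 0.66 at 24 h. The share of them called higher was 62.5% at both times, beside 15.2% of all genes at 48 h and 15.8% at 24 h. This list too was chosen with earlier results of these data known, so the share is not an independent test. Among ligands of Ccr2, Ccl12 was higher by 5.07 ± 0.57 at 48 h and 4.17 ± 0.57 at 24 h, Ccl7 by 2.64 ± 0.25 and 1.78 ± 0.25, and Ccl2 by 2.26 ± 0.16 and 1.46 ± 0.16. Cxcl12, which Ackr3 removes, was higher by 2.90 ± 0.41 at 48 h and 3.06 ± 0.41 at 24 h. Cxcl11, another Ackr3 ligand, was higher by 1.07 ± 0.31 and 2.31 ± 0.31, and Adm, the vasodilator peptide adrenomedullin, by 2.89 ± 0.35 and 1.91 ± 0.35. Ligand and receptor thus differed in the same direction for Ccr2 and Ackr3. For Cx3cr1 and Ccrl2 that was not seen: the fractalkine gene Cx3cl1 differed by 0.18 ± 0.20 and 0.27 ± 0.20, and the chemerin gene Rarres2 by -0.05 ± 0.21 and -0.35 ± 0.21, neither passing. Of the Ccr1 ligands, Ccl3 and Ccl5 did not pass either, and Ccl6 and Ccl9 were higher at both times.

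Of 12 tested genes among other chemokine and chemoattractant receptors, 2 were higher and 4 lower in in-sphere cells at 48 h, and 2 were higher and 3 lower at 24 h. The share called higher, 16.7% at both times, lay near that of all genes (15.2% and 15.8%). The list's median difference was -0.27 at 48 h and -0.16 at 24 h. The neutrophil receptor Cxcr2 was lower, with differences of -2.31 ± 0.28 at 48 h and -1.85 ± 0.28 at 24 h, and the formyl peptide receptor Fpr2 with -1.37 ± 0.18 and -1.28 ± 0.18. Ltb4r1, a leukotriene B4 receptor, was lower at 24 h (-2.10 ± 0.33), and Cxcr3, the receptor for interferon-induced chemokines, at 48 h (-0.70 ± 0.14). Gpr183, the oxysterol receptor, was higher by 1.83 ± 0.16 at 48 h and 1.31 ± 0.16 at 24 h. P2ry12, a purine receptor of microglia and platelets, was not well above background in outside cells at 48 h, and was at least 2.80-fold higher in in-sphere cells (limma adjusted p = 7.24e-06; measured difference 1.69); such a bound takes the filter level, or the measured value where that is higher, for each array of the dim group. Neutrophil markers were lower for 7 of 10 genes at each time, with 1 higher at 48 h, and the log2 of their summed level spanned 13.73 to 14.36 in in-sphere and 15.15 to 15.58 in outside cells at 48 h, against 14.26 to 14.72 in in-sphere and 15.42 to 15.68 in outside cells at 24 h. In outside cells that sum was above the one of the macrophage markers, which spanned 14.20 to 14.34 at 48 h and 14.11 to 14.35 at 24 h. The part of neutrophils in the lower Cxcr2 and Fpr2 was not tested. Nor was their part in the differences of the receptors analysed here or of the signalling genes below.

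Among 14 tested genes of the sphingosine 1-phosphate pathway, 2 were higher and 5 lower in in-sphere cells at 48 h. At 24 h 3 were higher and 5 lower, and the list's medians were -0.20 at 48 h and -0.039 at 24 h. The 48 h shares were 14.3% higher and 35.7% lower, beside 15.2% and 22.3% of all genes. The 24 h shares were 21.4% and 35.7%, beside 15.8% and 13.6%. Other receptors of the lipid were lower where S1pr1 was higher: S1pr2 differed by -1.30 ± 0.13 at 48 h, and S1pr4 by -1.41 ± 0.29 at 48 h and -1.16 ± 0.29 at 24 h. A further one, S1pr3, did not pass (-0.17 and -0.09). Sgpl1, the lyase that degrades the lipid, differed by -1.44 ± 0.16 at 48 h, and Sphk2, a kinase that makes it, by -1.04 ± 0.22. At 24 h the lipid phosphatases Plpp1 and Plpp3 were higher by 1.38 ± 0.23 and 0.91 ± 0.20, and Klf2, a transcription factor that drives S1pr1 in lymphocytes, was lower (-0.67 ± 0.20). Cd69, which binds S1pr1 and pulls it from the surface in lymphocytes, was higher by 2.68 ± 0.27 at 48 h (limma adjusted p = 1.47e-05), and in outside cells it was lower at 48 h than at 24 h by a log2 difference of -1.56 ± 0.27 (limma adjusted p = 0.0352). The Cd69 time call was lost without in-sphere 48 h replicate 2, outside 48 h replicate 1 or 3, in-sphere 24 h replicate 2 or outside 24 h replicate 2 or 3, and with only the groups compared. The 24 h count of 8 called genes fell to 4 without in-sphere 24 h replicate 2 and to 5 without any one of the outside 24 h arrays.

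Of 28 genes that carry or switch off chemokine receptor signals, 3 were higher and 12 lower at 48 h. At 24 h 2 were higher and 11 lower, and the list's medians were -0.45 at 48 h and -0.36 at 24 h. The 48 h shares were 10.7% higher and 42.9% lower, beside 15.2% and 22.3% of all genes. The 24 h shares were 7.14% and 39.3%, beside 15.8% and 13.6%. Rgs16, which speeds the shutdown of G protein signals, was higher by 2.87 ± 0.20 at 48 h and 3.19 ± 0.20 at 24 h. Several carriers of the signal were lower: Pik3r5, a subunit of the kinase that receptors activate, differed by -1.44 ± 0.21 at 48 h, and the small GTPase Rac2 by -0.93 ± 0.15 at 48 h and -1.08 ± 0.15 at 24 h. Prex1, an exchange factor for Rac, differed by -0.81 ± 0.26 and -1.05 ± 0.26. Gnai1, an inhibitory G protein subunit, was not well above background in in-sphere cells at 48 h and was at least 1.83-fold higher in outside cells (limma adjusted p = 0.00151). Rgs18 and the phospholipase Plcb2 were lower at 24 h (-1.42 ± 0.30 and -0.96 ± 0.34). The 15 calls at 48 h became 9 without in-sphere 48 h replicate 3 or outside 48 h replicate 2, and the 13 calls at 24 h became 8 without in-sphere 24 h replicate 1 and 7 without replicate 2. Over time, and for the change in location difference, Cd69 was the only gene of the 4 lists that passed without the replicate block. With the block, Ccl2 and Ccl8 were also lower at 48 h in outside cells (-0.76 and -0.78, limma adjusted p = 0.0201 and 0.0451), and the change passed for P2ry12 and Cd69 (1.24 and 1.97, limma adjusted p = 0.0421 and 0.0288).

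**Figure D4:**
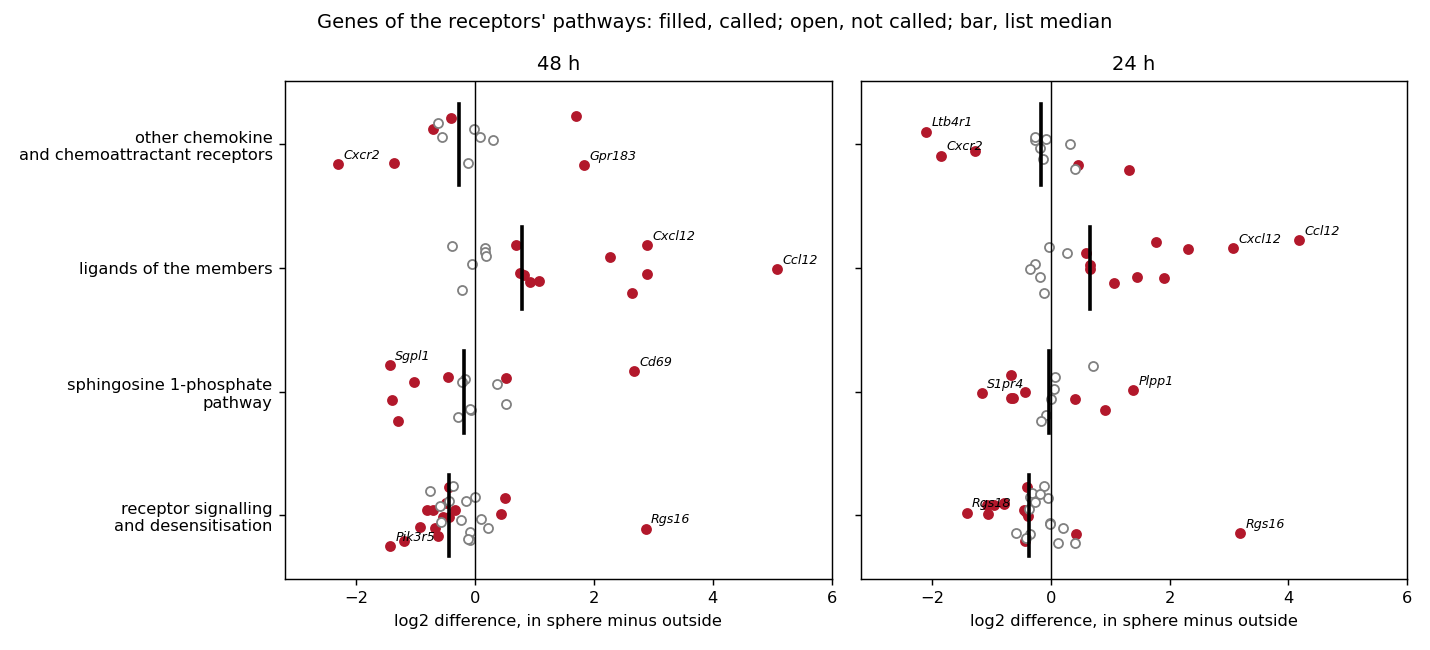
In-sphere minus outside log2 difference at 48 h and at 24 h for the tested genes of the ligand, other receptor, sphingosine 1-phosphate and signalling lists; filled points passed, open points did not, and the thick bar is the list's median. The called ligands lie above 0, with Ccl12 at 5.07 and 4.17, and the called signalling genes lie mostly under 0.

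The genes whose pattern over the 12 arrays was most like that of each receptor were ranked by the root mean square difference between centred log2 values. Closest to Ccr2 were Vcan, the extracellular proteoglycan versican, at 0.498, then Pxdc1 at 0.671 and Plac8 at 0.711, beside an SD of Ccr2 itself of 1.82. Vcan differed by 3.25 at 48 h and 1.47 at 24 h, and by -2.05 over time in outside cells, where its signal was 3.32, 4.72 and 5.42 at 48 h, against 6.16, 6.29 and 7.16 at 24 h. It was lowest on the same outside 48 h array as Ccr2. Closest to Cx3cr1 were Rnase4, Bnc2 and Slc14a1 (0.368 to 0.387), to Ackr3 Nr2f1, Mgarp and Cth (0.397 to 0.404), and to Ccr1 Gcnt1, Eid1 and Pwwp3b (0.181 to 0.217). Ccrl2 was matched most closely by Nfkbia and Nfkbiz, both induced by NF-kB, at 0.104 and 0.124, and then by Actl6a at 0.131. The SD of Ccrl2 itself was 0.250. Closest to S1pr1 were Mt1, Cisd3 and Phactr4 (0.128 to 0.140), beside an SD of S1pr1 of 0.403.

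**Figure D5:**
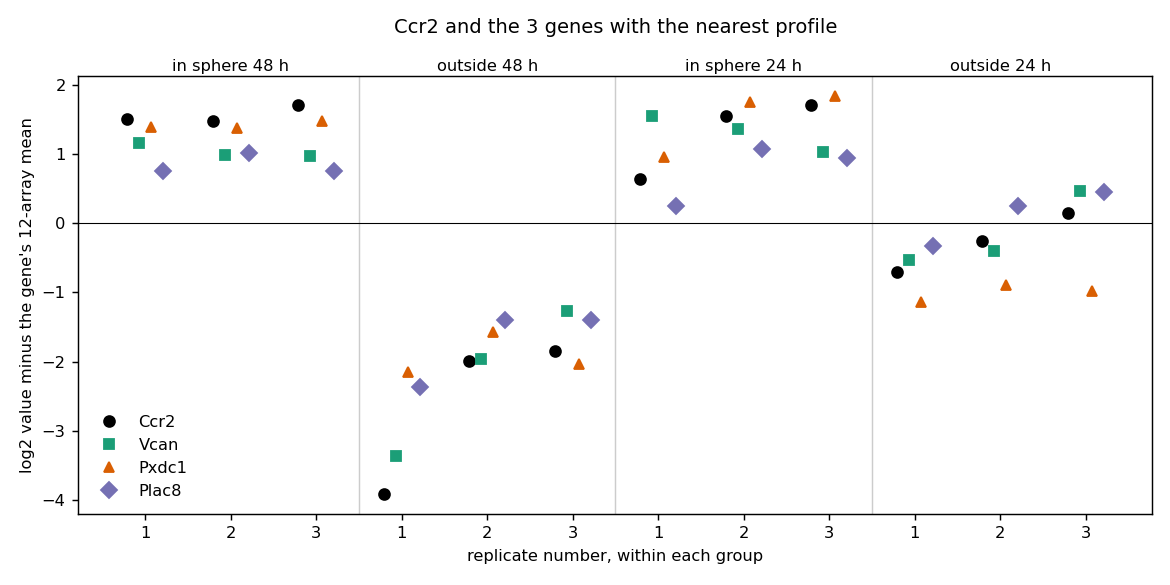
Centred log2 values of Ccr2 and of the 3 genes with the most similar pattern, on each of the 12 arrays, with in-sphere left of outside at each time. All 4 genes are lowest in outside cells at 48 h, and the first array of that group is the lowest for Ccr2, at 3.91 log2 units under its mean.

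Monocyte markers were mixed while Ccr2 was higher. Of 8, 3 were higher and 2 lower in in-sphere cells at 48 h, and 2 were higher and 4 lower at 24 h. In outside cells 2 of the 8 were lower at 48 h than at 24 h, Plac8 by a log2 difference of -1.85 ± 0.29 and F13a1, the monocyte transglutaminase, by -1.34 ± 0.21 (limma adjusted p = 0.0224 for both), in the comparison where Ccr2 differed by -2.31. The first outside 48 h array was the lowest of the 12 for Plac8, at 7.60, as it was for Ccr2. The log2 of the summed monocyte markers spanned 13.03 to 13.16 in in-sphere and 12.62 to 13.13 in outside cells at 48 h, against 13.01 to 13.40 in in-sphere and 13.28 to 13.60 in outside cells at 24 h. Dendritic cell markers passed for 2 of 7 at 48 h, 1 in each direction, and for 1 at 24 h. The latter was Fscn1, which was higher by 2.25 and 1.90 at 48 h and 24 h. The median difference of the 7 was 0.023 at 48 h and -0.11 at 24 h. The untested Xcr1 was at or under the filter level on every array. The summed level of all 9 with a probe set spanned 9.53 to 9.84 in in-sphere and 7.38 to 8.34 in outside cells at 48 h, against 9.43 to 10.03 in in-sphere and 7.92 to 8.29 in outside cells at 24 h. Of 8 lymphocyte and natural killer cell markers with a probe set, 6 were tested, of which 1 was higher at 48 h and 1 lower at 24 h. Cd3g and Ncr1 were at or under the level on every array, and the summed level of all 8 spanned 7.04 to 7.35 in in-sphere and 6.38 to 6.92 in outside cells at 48 h, against 7.22 to 7.58 in in-sphere and 7.01 to 7.60 in outside cells at 24 h. Of 5 tested endothelial markers 1 was lower at 48 h and 2 at 24 h, and the untested Tek and Tie1 were at or under the level on every array. The part of these cell types in the receptor differences was not tested.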

How the data were processed

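The authors deposited log2 values for each probe set, made by RMA; the submitters' processing notes name Affymetrix Expression Console 1.1 as the software. RMA corrects background, quantile-normalises the arrays and summarises probes. The values were used as deposited. Their array means were not equal, at 4.06 for the third in-sphere 48 h array against 4.20 to 4.22 for the others. Whether all arrays had been normalised together was not checked. Of 45141 probe sets, 28898 had 1 platform symbol, 551 several and 15692 none; 28689 matched RefSeq (GRCm38.p6), with 0 symbols changed. Each gene was represented by its brightest probe set, and 12488 of 17097 genes exceeded 2.77 (the 40th percentile of all values) on at least 3 arrays.

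One limma 3.58.1 model (R 4.3.3) with a mean for each of 4 groups gave all comparisons, tested on simulated data, with Benjamini-Hochberg adjustment over all tested genes. Ranges and per-list counts describe lists; from each list the 5 called genes with the largest difference at each time are named, with genes that a sentence on the receptors needed. The members and gene lists were chosen with earlier results of these data known. Replicate numbers come from the titles. The design text calls each replicate an independent experiment and both locations the same cultures, without saying that equal numbers mark a shared experiment. Same-numbered arrays deviated together in all 3 pairs (correlation over 0.1) between the times in outside cells (0.419 to 0.473); over all 18 pairs of arrays 12 exceeded 0.1 (0.0215 to 0.473), and between the locations at one time the correlations were 0.0215 to 0.120. The block is thus borne out for time in outside cells. For location the correlations were positive but low, which leaves the pairing unsettled. Alternatives were the replicate block, the dim-gene filter, array weights, cyclic loess, only the groups compared, trend and robust fits, centring on array medians, the mean or the next of a gene's probe sets, and each array left out; the fit of all probe sets was added after seeing the data. The number of arrays limits the precision. Affymetrix 3' to 5' control ratios for beta-actin averaged 0.405 ± 0.0114 in in-sphere and 0.386 ± 0.0134 in outside cells at 48 h, against 0.481 ± 0.127 in in-sphere and 0.285 ± 0.0535 in outside cells at 24 h (log2, SD, n = 3).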

Additional observations from a re-analysis of the deposited data

Results flagged for a closer look

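The in-sphere minus outside difference of Ccr2 was larger at 48 h than at 24 h by 2.57 ± 0.65 on the log2 scale (SE, n = 3 in each group), which drew attention because the change itself passed with the replicate number as a block (limma adjusted p = 0.0421) and not without it (limma adjusted p = 0.171). Between same-numbered arrays the location difference was 5.41, 3.47 and 3.56 at 48 h, against 1.35, 1.81 and 1.56 at 24 h. The change was 1.91 without outside 48 h replicate 1 and 1.53 with the mean of the Ccr2 probe sets. By the other probe sets it was 2.41 (1421187_PM_at), 0.71 (1421188_PM_at) and 0.43 (1460067_PM_at), none of which passed without the block.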

How the results depend on the processing

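Of 679 alternative values of the 6 receptors, 647 kept their direction and their side of the threshold, 18 no longer passed, 6 newly passed and 8 changed sign. The count of receptors called over time in outside cells was 0 and became 1, always Ccr2, with the replicate block (limma adjusted p = 0.00799), with the next probe set of each gene (0.0401), with array weights (0.0358) and after cyclic loess (0.0431). The count called for the change in location difference was 0 and became 1 with the replicate block, again Ccr2 (limma adjusted p = 0.0421); the block changed no other call of a receptor, and the correlations of same-numbered arrays across locations do not bear the pairing out. Without 1 array, 4 to 6 receptors were called at 48 h, 4 to 5 at 24 h and 0 in the other comparisons. Sign changes concerned differences that did not pass. Over time in spheres, S1pr1 was 0.15 with array weights against -0.16, and its change in location difference was 0.15 against -0.23; Ccr2 over time in spheres was -0.67 with probe set 1460067_PM_at against 0.26. Leaving out 1 array at a time gave -0.055 to 0.24 for Ackr3 and -0.067 to 0.47 for Ccr2 over time in spheres, and -0.088 to 0.18 for S1pr1 over time outside. The cause was not tested. Ccr1 lost both location calls with its other probe set. With 3 arrays a group, small differences such as those of Ccrl2 and S1pr1 lay near the threshold.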
